A study of Homo sapiens with 21 samples.

Results

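10 regulators were followed through every condition of the study: the zinc finger factors SNAI1 and SNAI2, the basic helix-loop-helix factors TWIST1 and TWIST2, the zinc finger and homeobox factors ZEB1 and ZEB2, the E proteins TCF3 and TCF4, the homeobox factor PRRX1, and SOX2. They are 10 of 20970 genes listed in at least 1 of 4 expression tables, found there by their Ensembl gene identifiers. The table of FADU knockdown cells lists 9 of them, that of BFTC909 knockdown cells 8, that of FADU overexpressing cells all 10, and that of FADU METTL4 mutant cells 7. PRRX1 was listed in the overexpression table only, and SOX2 was absent from the BFTC909 table.

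The first 9 genes encode transcription factors tied to the epithelial to mesenchymal transition, in which epithelial cells give up cell junctions and gain motility. SNAIL and ZEB proteins bind E-box sequences in promoters of epithelial genes such as CDH1, the gene of the adhesion protein E-cadherin, and recruit corepressors there. TWIST proteins act as dimers with E proteins such as TCF3 and TCF4, PRRX1 is a homeobox factor of mesenchymal tissue, and SOX2 is a high mobility group factor that keeps stem cells undifferentiated and marks squamous epithelium.

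The study asked which RNAs hypoxia changes through METTL4, a methyltransferase that it ties to N6-methyladenine in DNA. FADU is a head and neck squamous carcinoma line and BFTC909 a transitional carcinoma line of the renal pelvis. In each line, 2 libraries were made from cells with a scrambled control (Scr-si) at 18% O2, called normoxia, 2 from the same cells after 18 h at 1% O2, called hypoxia, and 2 from METTL4-si cells in hypoxia. All knockdown cells thus carried an interfering construct, which the labels call siRNA and the study's methods describe as lentiviral short hairpin RNA, and normoxic METTL4-si cells were not analysed here. A further 6 libraries came from normoxic FADU cells stably transfected with a pcDNA3-based plasmid: 2 with the control vector, 2 with METTL4 (METTL4-OE) and 2 with RP11-390F4.3, a long noncoding RNA (RP11-390F4.3-OE). The study's methods call such cells stable clones, and the labels do not say how many clones each construct had. Effects of a construct thus cannot be told apart from other differences between the transfected cells. The last 3 libraries came from hypoxic FADU cells: 1 CRISPR control and 2 METTL4 mutant clones, each grown from a single prime-edited cell and sequenced once. The study's methods describe the edit as a change of the METTL4 catalytic site from DPPW to APAW. The labels do not say that replicates were separate cultures, so p-values measure only the spread between these libraries, which may be technical.

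All values are TMM-normalized CPM, read counts scaled to the effective size of each library, and 17.8 to 25.4 M reads per library lay on genes. In FADU the METTL4 level of the METTL4-si libraries (24.2 and 27.1 CPM) overlapped that of the hypoxic controls (26.6 and 25.3 CPM), a log2 difference of -0.02 with an adjusted p of 0.90, so these are called libraries labelled METTL4-si. In BFTC909 METTL4 had 14.4 and 12.2 CPM against 19.0 and 15.6 CPM (log2 difference -0.36, adjusted p 0.0717), and in METTL4-OE cells it had 158 and 139 CPM against 35.4 and 32.7 CPM. The columns of the RP11-390F4.3-OE cells carry another name and were assigned by elimination, and RP11-390F4.3 itself had 23.9 and 25.1 CPM there against 12.9 and 13.4 CPM in controls. All 8 squamous markers checked were listed in FADU, with summed levels of 2211 to 4067 CPM in the knockdown and overexpression libraries. In the mutant libraries, whose levels are on another scale, they summed to 1647 to 2518 CPM. Only 3 of 8 urothelial markers were listed in BFTC909. UPK2, UPK1B and KRT20 were not listed there, and GATA3 stayed below 1 CPM in 5 of 6 libraries. Breast luminal markers, 7 of 10 listed in FADU knockdown cells, stood apart in replicate 1 of FADU METTL4-si. They summed to 911 CPM there, against 60.3 to 93.9 CPM in 4 of the other 5 libraries of that table and 221 CPM in normoxia replicate 1. In BFTC909 3 of 10 were listed, and METTL4-si replicate 2 had 447 CPM against 104 to 194 CPM. GATA3, also among the urothelial markers, had 128 CPM in that library against 0.844 CPM in its replicate, and GREB1 121 against 10.6 CPM. With 5 of 10 listed, RP11-390F4.3-OE replicate 2 stood apart less (117 CPM against 59.3 to 74.3 CPM). The members' calls and the gene lists that rest on these libraries are also given without them.

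Promoters of 3 factors whose levels differed between conditions in FADU cells are shown as examples. ZEB1, TCF3 and TCF4 also differed in some FADU comparisons and had promoter entries, but are not shown. ZEB2 was too low in FADU cells for the main test. Each is 300 bases from RefSeq on GRCh38.p14, written 5′ to 3′ on the strand of the gene, from 250 bases before the annotated start. Capitals mark the core of a hypoxia response element, searched as ACGTG on either strand, which appears as CACGT when it lies on the opposite one. TWIST2 lies at chr2:238847835-238848134 (plus strand), ZEB2 at chr2:144520070-144520369 (minus strand) and SOX2 at chr3:181711675-181711974 (plus strand).
TWIST2: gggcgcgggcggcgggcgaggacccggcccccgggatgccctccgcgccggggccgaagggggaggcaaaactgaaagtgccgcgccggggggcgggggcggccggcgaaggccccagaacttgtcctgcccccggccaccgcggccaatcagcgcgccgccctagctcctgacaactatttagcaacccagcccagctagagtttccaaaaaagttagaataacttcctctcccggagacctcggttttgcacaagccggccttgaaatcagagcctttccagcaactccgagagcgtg
ZEB2: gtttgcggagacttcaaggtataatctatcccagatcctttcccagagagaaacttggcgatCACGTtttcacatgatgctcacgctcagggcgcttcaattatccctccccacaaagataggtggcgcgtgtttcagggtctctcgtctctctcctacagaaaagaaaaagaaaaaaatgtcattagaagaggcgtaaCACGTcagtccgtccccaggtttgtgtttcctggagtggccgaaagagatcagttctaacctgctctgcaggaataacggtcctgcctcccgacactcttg
SOX2: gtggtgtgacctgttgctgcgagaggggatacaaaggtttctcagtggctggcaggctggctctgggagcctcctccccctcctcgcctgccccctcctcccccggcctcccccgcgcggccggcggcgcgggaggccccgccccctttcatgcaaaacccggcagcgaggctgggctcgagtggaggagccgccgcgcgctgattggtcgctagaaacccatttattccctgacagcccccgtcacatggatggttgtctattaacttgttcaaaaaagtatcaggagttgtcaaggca

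The ZEB2 window held the hypoxia response core at 2 places, 188 and 51 bases before the start, and the TWIST2 and SOX2 windows held none. The core occurred in 21.4% of all 35116 promoter windows of this length, and the SNAIL and ZEB E-box, searched as CAGGTG on either strand, in 20.6%. None of these 3 windows held that E-box. Among the other members, TCF3 and PRRX1 held neither, some of the alternative starts of ZEB1 and TCF4 held the core, and some of ZEB1 held the E-box. SNAI1, SNAI2 and TWIST1 had no entry among the promoters used. A match of letters describes the window and is not a measured binding site.

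The genes lie apart in the genome, each with its place in GRCh37 and its Ensembl identifier as in the tables. SNAI1 (ENSG00000124216) lies at chr20:48599517-48605423 on the plus strand, SNAI2 (ENSG00000019549) at chr8:49830157-49834299 on the minus strand, TWIST1 (ENSG00000122691) at chr7:19060614-19157259 on the minus strand and TWIST2 (ENSG00000233608) at chr2:239756673-239832230 on the plus strand. ZEB1 (ENSG00000148516) lies at chr10:31607424-31818742 on the plus strand, ZEB2 (ENSG00000169554) at chr2:145121931-145278624 on the minus strand, TCF3 (ENSG00000071564) at chr19:1609290-1652614 on the minus strand and TCF4 (ENSG00000196628) at chr18:52889416-53332018 on the minus strand. PRRX1 (ENSG00000116132) lies at chr1:170631869-170708562 on the plus strand and SOX2 (ENSG00000181449) at chr3:181429713-181432224 on the plus strand. TCF4 here is the E protein gene, also called E2-2, and not TCF7L2 of the Wnt pathway. Exons of ZEB1 share 396 bases with exons of its antisense gene ZEB1-AS1, 4.58% of the ZEB1 exons. Exons of ZEB2 share 2966 bases with a pseudogene on the same strand, listed in the BFTC909 table only.

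Levels can be compared between genes only per kilobase of exon, here of all annotated exons merged, which lowers genes with many long transcript forms such as ZEB2 and TCF4. In normoxic FADU cells TCF3 was highest (11.6 ± 0.97 CPM per kb; SD, n = 2), followed by SNAI2 (9.27 ± 0.87), SOX2 (4.27 ± 0.46), TWIST2 (2.90 ± 0.03), TWIST1 (1.84 ± 0.45) and SNAI1 (0.717 ± 0.124). ZEB2 was the lowest listed member, at 0.0148 CPM per kb, behind ZEB1 (0.18) and TCF4 (0.230), and no neighbours in this order overlapped. In hypoxic FADU cells SNAI2 stood first (16.6 ± 0.35 CPM per kb), above TCF3 (10.4 ± 0.04), while SOX2 (0.667 ± 0.02) had passed below TWIST2 and TWIST1. There TWIST2 (1.53 ± 0.06) and TWIST1 (1.45 ± 0.21) overlapped, as did TCF4 (0.188) and ZEB1 (0.149).

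BFTC909 cells had a different order. SNAI2 was highest in normoxia (37.7 ± 2.27 CPM per kb), and ZEB1 (13.8 ± 0.27), near the bottom in FADU, was second, above TCF3 (12.5 ± 0.02). SNAI1 (3.36 ± 0.82) and TWIST1 (3.12 ± 0.16) overlapped, and TWIST2 (2.08), ZEB2 (1.56) and TCF4 (1.38) followed. In hypoxia SNAI2 (24.0 ± 1.24) and ZEB1 (11.3 ± 1.07) stayed first and second, SNAI1 (9.86 ± 0.68) and TCF3 (9.83 ± 0.61) were level, and the lowest pair, TCF4 (1.57) and TWIST2 (1.55), overlapped. Tables were normalized separately and each line has its own, so the difference between lines was not tested.

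**Figure D1:**
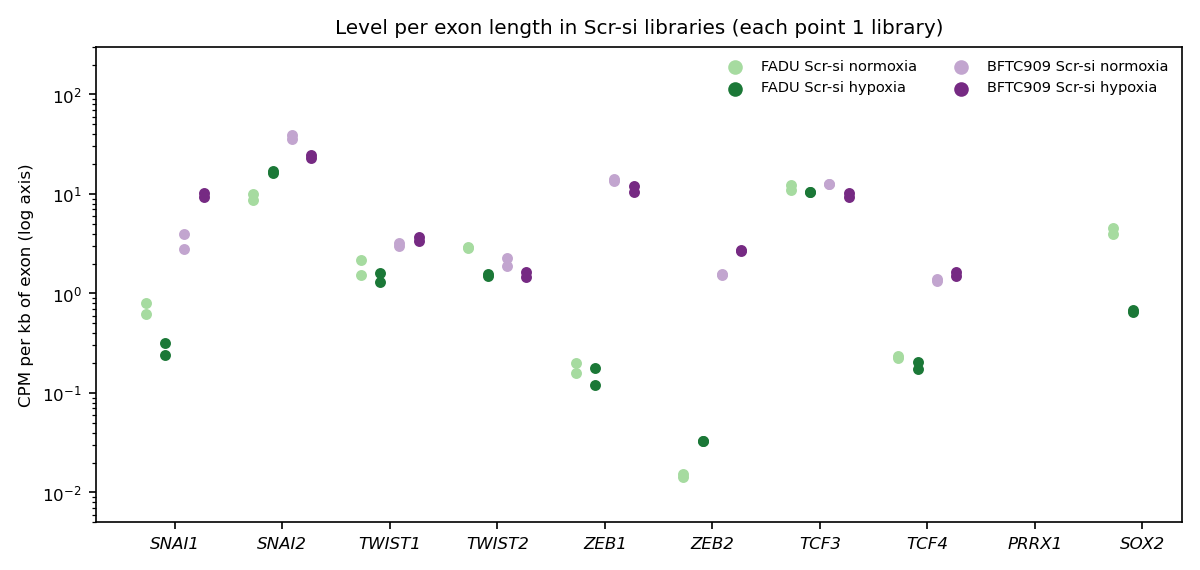
Levels of the members in the Scr-si libraries of FADU and BFTC909 cells, in TMM-normalized CPM per kilobase of merged exons on a log axis, with 1 point per library. ZEB1 sits near the bottom in FADU (0.18 CPM per kb in normoxia) and second in BFTC909 (13.8), and SOX2 has points in FADU only.

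In FADU cells hypoxia changed the 2 SNAIL factors in opposite directions and cut SOX2. SNAI2 rose 1.79-fold, while SOX2, TWIST2 and SNAI1 fell to 0.156, 0.526 and 0.389 of their normoxic means. A gene is called here when it differs at least 1.3-fold, measured on log2(CPM + 1), with an unadjusted limma p under 0.05. The fold and p thresholds are those of the study, whose own test was edgeR, while limma and this scale were chosen here, and adjusted p-values over all tested genes are given with each difference. Of 8 members tested, 4 were called, 1 higher and 3 lower, against 24.9% of all 16324 tested genes (12.4% higher and 12.5% lower), and all 4 also had an adjusted p under 0.05, as 19.4% of tested genes did.

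SNAI2, encoding the repressor also called Slug, had 32.5 and 28.4 CPM in normoxia and 53.8 and 55.4 CPM in hypoxia. Both hypoxic libraries stood above both normoxic ones, with a log2 difference of 0.83 (95% interval 0.59 to 1.06, SE 0.0994, adjusted p 0.0027). SNAI1, encoding Snail, had 1.37 and 1.07 CPM in normoxia and 0.539 and 0.410 CPM in hypoxia, which is 33, 24, 12 and 9 reads. The groups did not overlap, and the log2 difference was -0.59 (95% interval -0.94 to -0.24, adjusted p 0.030), on few reads. With a pseudocount of 5 in place of 1 it was -0.18 and not called.

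SOX2 had 11.6 and 9.92 CPM in normoxia, or 278 and 222 reads, and 1.71 and 1.64 CPM in hypoxia, or 38 and 36 reads. It had the largest difference of any member in this comparison, a log2 difference of -2.13 (95% interval -2.43 to -1.83, SE 0.126, adjusted p 0.000231). SOX2-OT, the long noncoding gene in whose intron SOX2 lies, had 0.457 and 0.715 CPM in normoxia and 0.764 and 0.958 CPM in hypoxia, so it was not lower where SOX2 was. In the METTL4-si libraries SOX2-OT had 0.518 and 0.579 CPM. All these values lie under 1 CPM, and SOX2-OT was not tested.

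TWIST2, the shorter relative of TWIST1, had 4.94 and 4.87 CPM in normoxia and 2.65 and 2.51 CPM in hypoxia. Its groups were well separated, with a log2 difference of -0.72 (95% interval -1.05 to -0.40, adjusted p 0.0123). TWIST1 had 4.32 and 3.04 CPM in normoxia and 3.19 and 2.60 CPM in hypoxia. These groups overlapped, and its log2 difference of -0.26 (adjusted p 0.324) was not called.

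ZEB1 also overlapped, at 1.37 and 1.74 CPM in normoxia and 1.53 and 1.05 CPM in hypoxia (log2 difference -0.16, adjusted p 0.498). The E proteins were not called either: TCF3 had 78.0 and 69.2 CPM against 66.4 and 66.0 CPM, and TCF4 had 6.48 and 6.92 CPM against 5.93 and 5.06 CPM. Both E proteins were lower in each hypoxic library, by log2 differences of -0.15 (adjusted p 0.498) and -0.25 (adjusted p 0.285). ZEB2 lay under the filter of 1 CPM in at least 2 libraries, with 9 reads in each normoxic library (0.374 and 0.402 CPM) and 19 in each hypoxic one (0.854 and 0.867 CPM). edgeR on whole reads without that filter gave ZEB2 a log2 difference of 1.14 with an adjusted p of 0.0467.

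In the FADU libraries labelled METTL4-si, the differences of SNAI2, SNAI1 and SOX2 ran opposite to those called in hypoxia. How many of all genes did so was not counted. SNAI2 fell to 0.39 of its level in the hypoxic control, SNAI1 rose 3.42-fold and SOX2 rose 4.69-fold. Of 8 members tested, 5 were called, 3 higher and 2 lower, against 32.0% of all tested genes (15.2% higher and 16.8% lower), and 4 of the 5 had an adjusted p under 0.05, against 27.8% of tested genes. Both comparisons use the same 2 hypoxic Scr-si libraries, so values that those libraries have by chance move both comparisons in opposite directions.

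SNAI2 had 19.9 and 22.6 CPM in the METTL4-si libraries, below the hypoxic controls at 53.8 and 55.4 CPM and also below both normoxic libraries. The log2 difference from the hypoxic control was -1.32 (95% interval -1.56 to -1.08, adjusted p 0.00037). SNAI1 had 1.52 and 1.74 CPM, or 38 and 39 reads, above all 4 Scr-si libraries. Its log2 difference was 0.83 (95% interval 0.48 to 1.18, adjusted p 0.00639), and 0.28 and not called with a pseudocount of 5.

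SOX2 had 8.02 and 7.70 CPM, or 201 and 173 reads, above the hypoxic controls and below the normoxic ones. Its log2 difference was 1.73 (95% interval 1.43 to 2.03, adjusted p 0.000337). TCF4 had 7.26 and 9.52 CPM, above the controls at 5.93 and 5.06 CPM, a log2 difference of 0.52 (adjusted p 0.0397). Its replicates lay far apart, and without Scr-si hypoxia replicate 2 the difference was 0.43 and not called, while without METTL4-si replicate 2, or with a pseudocount of 5, it was 0.35.

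TCF3 had 58.2 and 42.3 CPM against 66.4 and 66.0 CPM, lower in both libraries, with a log2 difference of -0.41 that was called by its unadjusted p only (adjusted p 0.0698). Without METTL4-si replicate 2 the TCF3 difference shrank to -0.18, and without hypoxic Scr-si replicate 1 or 2 it stayed at -0.41 but was no longer called. TWIST2 had 3.95 and 3.20 CPM, above both controls, but its log2 difference of 0.35 (adjusted p 0.0903) fell short of 1.3-fold on this scale, while it was called by edgeR on whole reads (0.46) and without METTL4-si replicate 2 (0.47). TWIST1 (2.99 and 3.16 CPM, log2 difference 0.07) and ZEB1 (1.48 and 1.42 CPM, log2 difference 0.11) lay within the range of the controls.

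ZEB2 had 0.319 and 0.311 CPM, 8 and 7 reads, against 19 in each hypoxic control, and edgeR on whole reads gave a log2 difference of -1.43 (adjusted p 0.0178). The breast marker level of METTL4-si replicate 1 was 911 CPM against 93.9 CPM in replicate 2. Its fibroblast markers, 2 of 10 listed, summed to 116 against 5.87 CPM, of which COL3A1 alone made up 109 against 0.044 CPM. Without this library and normoxia replicate 1, an alternative chosen after seeing the data, the same numbers of members were called, 4 in hypoxia and 5 in the METTL4-si libraries. The log2 differences in the METTL4-si libraries were then -1.24 for SNAI2, 0.89 for SNAI1, 1.70 for SOX2, 0.70 for TCF4 and -0.64 for TCF3, and in hypoxia 0.92 for SNAI2, -0.49 for SNAI1, -2.03 for SOX2 and -0.71 for TWIST2.

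In BFTC909 cells hypoxia raised SNAI1 2.94-fold and ZEB2 1.72-fold and lowered SNAI2 to 0.636 of its normoxic mean. Of 8 members tested, 3 were called, 2 higher and 1 lower, against 38.7% of all 14869 tested genes (19.5% higher and 19.2% lower), so the share of members called was close to that of all genes. All 3 had an adjusted p under 0.05, against 36.2% of tested genes. SOX2 and PRRX1 were not listed, and every listed gene had at least 10 reads in its highest library.

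SNAI1 had 4.74 and 6.71 CPM in normoxia and 16.0 and 17.6 CPM in hypoxia, or 106, 160, 332 and 369 reads. Both hypoxic libraries lay far above the normoxic ones, with a log2 difference of 1.42 (95% interval 1.03 to 1.81, SE 0.168, adjusted p 0.000624). SNAI2 had 129 and 118 CPM in normoxia and 81.5 and 75.7 CPM in hypoxia. These groups were also apart, with a log2 difference of -0.65 (95% interval -0.85 to -0.45, adjusted p 0.000948).

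ZEB2, which like ZEB1 represses E-cadherin, had 41.4 and 40.4 CPM in normoxia and 71.7 and 69.2 CPM in hypoxia. Replicates agreed closely, and the log2 difference was 0.77 (95% interval 0.53 to 1.01, adjusted p 0.00108). ZEB1 had 121 and 118 CPM in normoxia and 104 and 90.9 CPM in hypoxia, lower in both hypoxic libraries but not called (log2 difference -0.30, adjusted p 0.0606). TCF3, at 79.6 and 79.4 CPM against 59.8 and 65.4 CPM, had an adjusted p of 0.0345 with a log2 difference of -0.34, which is short of 1.3-fold. TCF3 was called without Scr-si hypoxia replicate 2 (-0.40) and ZEB1 without Scr-si hypoxia replicate 1 (-0.39).

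The remaining members were not called. TWIST1 had 6.44 and 6.0 CPM in normoxia and 6.70 and 7.45 CPM in hypoxia (log2 difference 0.16, adjusted p 0.295), and TCF4 had 41.2 and 39.2 CPM against 48.0 and 43.8 CPM (log2 difference 0.19, adjusted p 0.289). Both were higher in each hypoxic library by little. TWIST2, at 3.22 and 3.82 CPM against 2.75 and 2.48 CPM, was lower in each (log2 difference -0.32, adjusted p 0.114).

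With METTL4-si, BFTC909 cells in hypoxia had SNAI1 at 0.226 of the control level and ZEB1 1.39-fold higher, and no other member was called. These 2 of 8 members stand against 28.7% of all tested genes (15.7% higher and 12.9% lower), and both had an adjusted p under 0.05, against 24.9% of tested genes. The hypoxic Scr-si libraries are again shared with the oxygen comparison.

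SNAI1 had 3.42 and 4.18 CPM, or 73 and 83 reads, below the hypoxic controls at 16.0 and 17.6 CPM and also below both normoxic libraries. The log2 difference was -1.89 (95% interval -2.29 to -1.50, adjusted p 0.000297). ZEB1 had 149 and 121 CPM, above the controls at 104 and 90.9 CPM, with a log2 difference of 0.46 (95% interval 0.20 to 0.72, adjusted p 0.0173). It fell under the threshold, at 0.37, without Scr-si hypoxia replicate 2 or after centring each library on its median, and to 0.31 without METTL4-si replicate 1. ZEB1-AS1, whose exons overlap ZEB1 on the other strand, was called as well (log2 difference 0.40, adjusted p 0.0455). It had 9.66 and 8.91 CPM against 6.17 and 7.45 CPM in the controls. Without a stated strand setting, reads in the 396 bases that the exons share cannot be told apart.

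ZEB2 had 66.5 and 53.5 CPM, below both controls at 71.7 and 69.2 CPM, but was not called (log2 difference -0.24, adjusted p 0.123), except without METTL4-si replicate 1 (-0.39). SNAI2, at 83.4 and 74.3 CPM, stayed at the level of the hypoxic controls, with a log2 difference of 0.00 and a 95% interval of -0.20 to 0.20. TWIST2 had 2.34 and 2.92 CPM (log2 difference 0.00, 95% interval -0.34 to 0.35), TWIST1 6.99 and 6.6 CPM (log2 difference -0.05) and TCF4 50.5 and 37.6 CPM (log2 difference -0.07), and each overlapped its controls. TCF3 overlapped too, at 65.0 and 80.9 CPM (log2 difference 0.21, adjusted p 0.172). Leaving out METTL4-si replicate 2, which carried breast markers at 447 CPM, left the same number of members called.

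**Figure D2:**
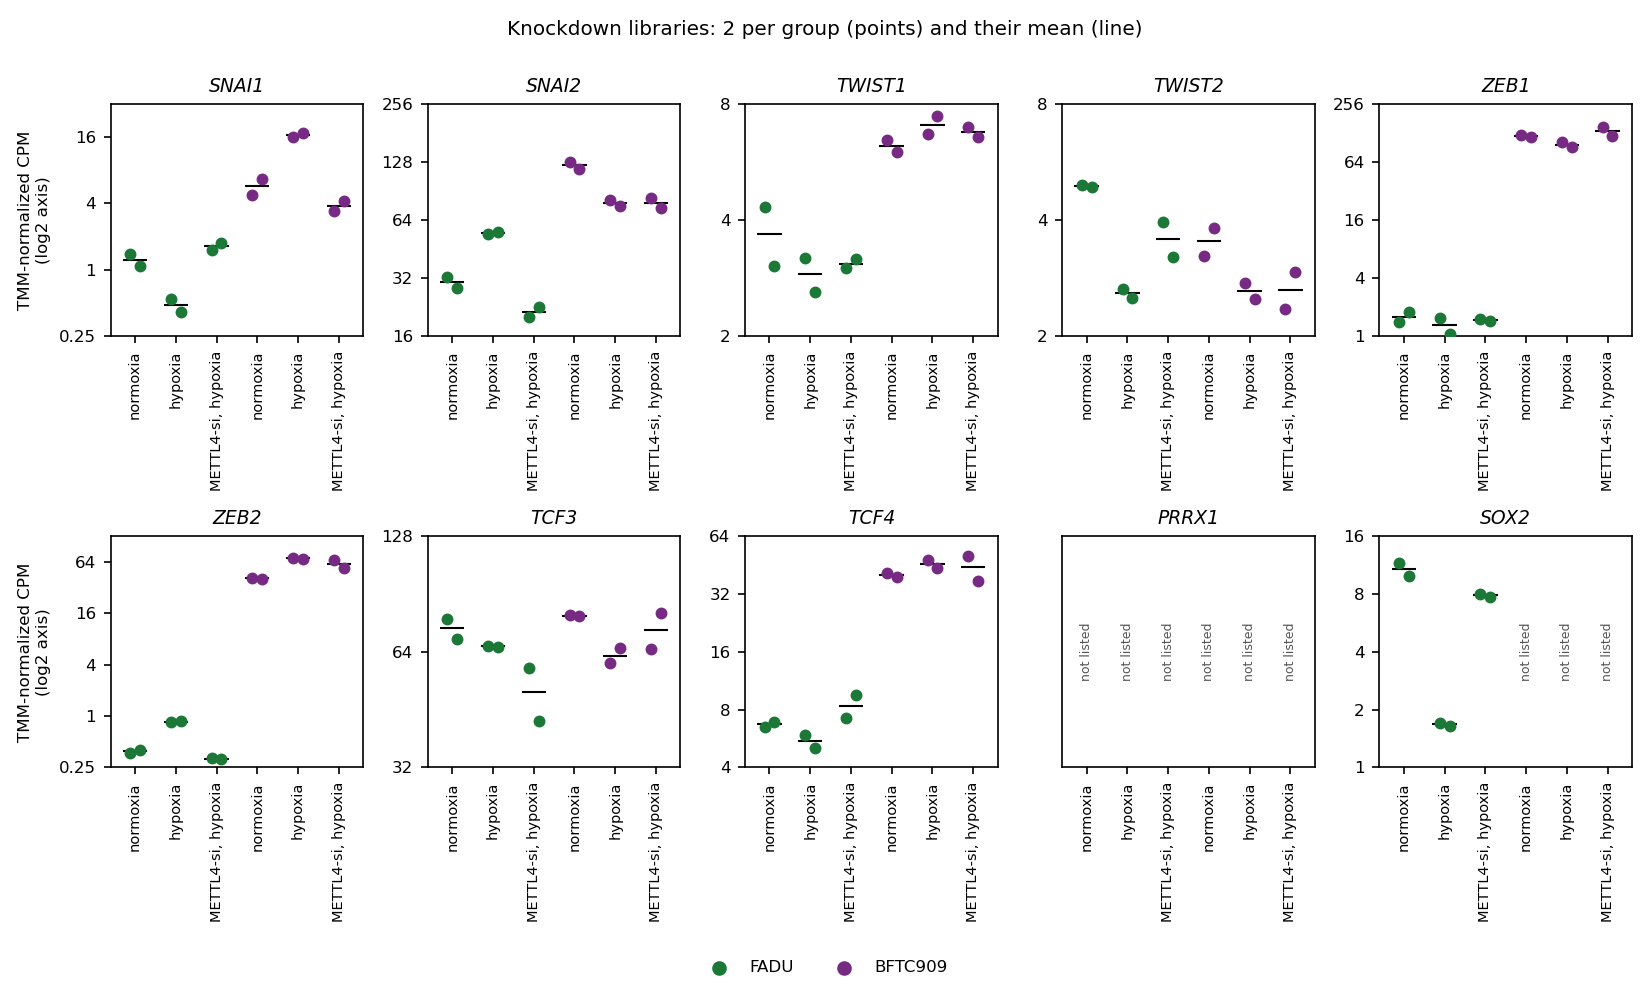
TMM-normalized CPM of each member in the 12 knockdown libraries on a log2 axis, with 1 point per library, a line at each group mean, and FADU and BFTC909 side by side for Scr-si in normoxia, Scr-si in hypoxia and METTL4-si in hypoxia. SOX2 in FADU drops from 11.6 and 9.92 to 1.71 and 1.64 CPM in hypoxia and stands at 8.02 and 7.70 CPM with METTL4-si, and SNAI1 moves in opposite directions in the 2 lines.

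Forced expression of METTL4 in normoxic FADU cells came with more SNAI2, ZEB1, TWIST1 and TWIST2 RNA and less SOX2 and TCF4. SNAI2 was 2.37-fold and ZEB1 3.04-fold the control vector level, and SOX2 and TCF4 were at 0.506 and 0.554 of it. Of 8 members tested, 6 were called, 4 higher and 2 lower, against 19.4% of all 15644 tested genes (8.30% higher and 11.1% lower). All 6 had an adjusted p under 0.05, against 18.5% of tested genes.

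SNAI2 had 31.0 and 29.5 CPM with the control vector and 73.6 and 69.8 CPM in METTL4-OE cells. The groups were far apart, with a log2 difference of 1.22 (95% interval 1.09 to 1.35, SE 0.0598, adjusted p 2.92e-09). ZEB1 had 1.48 and 1.3 CPM against 4.42 and 4.03 CPM, a log2 difference of 1.13 (95% interval 0.83 to 1.43, adjusted p 2.43e-05). ZEB1-AS1 was not called here (log2 difference 0.25).

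TWIST1 had 2.62 and 3.26 CPM in controls and 5.17 and 4.35 CPM in METTL4-OE cells. TWIST2 had 3.01 and 2.98 CPM against 5.86 and 5.08 CPM. Both TWIST genes were higher in each METTL4-OE library, by log2 differences of 0.55 (95% interval 0.26 to 0.84, adjusted p 0.00558) and 0.69 (95% interval 0.43 to 0.96, adjusted p 0.000573). TWIST1 was not called with a pseudocount of 5 (0.30).

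SOX2 had 9.59 and 6.65 CPM in controls, a wide spread, and 3.78 and 4.44 CPM in METTL4-OE cells. The groups did not overlap, and the log2 difference was -0.82 (95% interval -1.15 to -0.49, SE 0.153, adjusted p 0.000797). TCF4 had 7.11 and 7.63 CPM in controls and 4.27 and 3.90 CPM in METTL4-OE cells (log2 difference -0.72, 95% interval -0.95 to -0.48, adjusted p 0.000152). TCF3 had 69.2 and 64.8 CPM against 77.9 and 70.5 CPM, higher by too little to be called (log2 difference 0.14, adjusted p 0.0684).

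SNAI1, at 1.34 and 1.16 CPM in controls and 1.14 and 0.952 CPM in METTL4-OE cells, was not called (log2 difference -0.14, 95% interval -0.45 to 0.17). ZEB2 was under the filter, with 4 and 7 reads in controls and 20 and 13 in METTL4-OE cells (0.191 and 0.326 against 0.994 and 0.589 CPM). The read counts did not overlap, and edgeR on whole reads gave a log2 difference of 1.58 with an adjusted p of 0.0212. PRRX1 had 8 and 7 reads in controls and 5 and 11 in METTL4-OE cells, which overlapped (edgeR log2 difference 0.10, adjusted p 0.909).

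Cells with RP11-390F4.3-OE had SNAI1, both TWIST genes, TCF4 and, less, SNAI2 higher than the control vector cells, and SOX2 lower. SNAI1 was 2.41-fold and TWIST1 1.72-fold the control level, and SOX2 was at 0.495 of it. Of 8 members, 6 were called, 5 higher and 1 lower, against 29.6% of all tested genes (16.8% higher and 12.8% lower), and all 6 had an adjusted p under 0.05, against 29.0% of tested genes. The control vector libraries are the same as in the METTL4-OE comparison, so the results of both share whatever is particular to those 2 libraries.

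SNAI1 had 2.98 and 3.04 CPM, or 74 and 71 reads, against 28 and 25 reads in controls. The libraries lay clearly above the controls, with a log2 difference of 0.84 (95% interval 0.52 to 1.15, SE 0.144, adjusted p 0.00029). SNAI2 had 41.4 and 39.1 CPM against 31.0 and 29.5 CPM, a log2 difference of 0.40 (95% interval 0.27 to 0.53, adjusted p 8.54e-05) just past the fold threshold, which was 0.32 and not called after centring each library on its median. It also fell under the threshold without control vector replicate 2 (0.37) or RP11-390F4.3-OE replicate 1 (0.36). TWIST1 had 4.91 and 5.18 CPM and TWIST2 5.19 and 5.35 CPM, all above their controls.

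The log2 differences of the TWIST genes were 0.62 (95% interval 0.33 to 0.91, adjusted p 0.00169) for TWIST1 and 0.65 (95% interval 0.39 to 0.92, adjusted p 0.000617) for TWIST2. TCF4 had 11.6 and 11.3 CPM, above the controls at 7.11 and 7.63 CPM, with a log2 difference of 0.57 (95% interval 0.34 to 0.81, adjusted p 0.000636). SOX2 had 4.27 and 3.77 CPM, or 106 and 88 reads against 201 and 143, a log2 difference of -0.84 (95% interval -1.17 to -0.52, adjusted p 0.000432). With a pseudocount of 5, SNAI1 (0.36), SNAI2 (0.36), TWIST1 (0.34) and TWIST2 (0.36) were not called. Without RP11-390F4.3-OE replicate 2, the library with more breast markers, the 6 calls had log2 differences of 0.82 for SNAI1, 0.44 for SNAI2, 0.59 for TWIST1, 0.63 for TWIST2, 0.59 for TCF4 and -0.77 for SOX2.

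ZEB1, at 1.89 and 1.71 CPM against 1.48 and 1.3 CPM, was higher in both libraries but not called (log2 difference 0.23, adjusted p 0.18), while ZEB1-AS1 was (log2 difference 0.84, adjusted p 0.000313). TCF3 had 71.8 and 75.1 CPM and was not called (log2 difference 0.13, adjusted p 0.0779). ZEB2 had 21 and 26 reads (0.846 and 1.11 CPM) against 4 and 7 in controls, and edgeR on whole reads gave a log2 difference of 1.89 with an adjusted p of 0.00343. PRRX1 had 15 and 13 reads against 8 and 7 (edgeR log2 difference 0.71, adjusted p 0.229).

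The overexpressing lines differed from each other in 4 members. Relative to METTL4-OE, RP11-390F4.3-OE cells had 2.80-fold more TCF4 and 2.87-fold more SNAI1 and 0.561 of the SNAI2 and 0.426 of the ZEB1. These 4 of 8 tested members, 2 higher and 2 lower, stand against 32.4% of all tested genes (18.8% higher and 13.6% lower), and all 4 had an adjusted p under 0.05, against 31.6%. TCF4, at 11.6 and 11.3 CPM against 4.27 and 3.90 CPM, differed most on this scale (log2 1.29, 95% interval 1.06 to 1.53, adjusted p 3.97e-07), although the ratio of the CPM themselves was slightly larger for SNAI1. It moved in opposite directions from the control vector in the 2 lines, up with RP11-390F4.3-OE and down with METTL4-OE.

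SNAI1 differed by 0.97 on the log2 scale (95% interval 0.66 to 1.28, adjusted p 7.00e-05), SNAI2 by -0.82 (95% interval -0.95 to -0.69, adjusted p 9.97e-08) and ZEB1 by -0.90 (95% interval -1.20 to -0.60, adjusted p 9.85e-05). In all 3 genes the libraries of the lines did not overlap, and how many of all tested genes had such groups was not counted. The other 4 tested members had differences near 0 that intervals bounded: TWIST1 0.07 (-0.22 to 0.37), TWIST2 -0.04 (-0.31 to 0.23), TCF3 -0.01 (-0.14 to 0.11) and SOX2 -0.02 (-0.35 to 0.31). ZEB2 and PRRX1 did not differ beyond their spread by edgeR on whole reads (log2 differences 0.31 and 0.61, adjusted p 0.502 and 0.288).

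**Figure D3:**
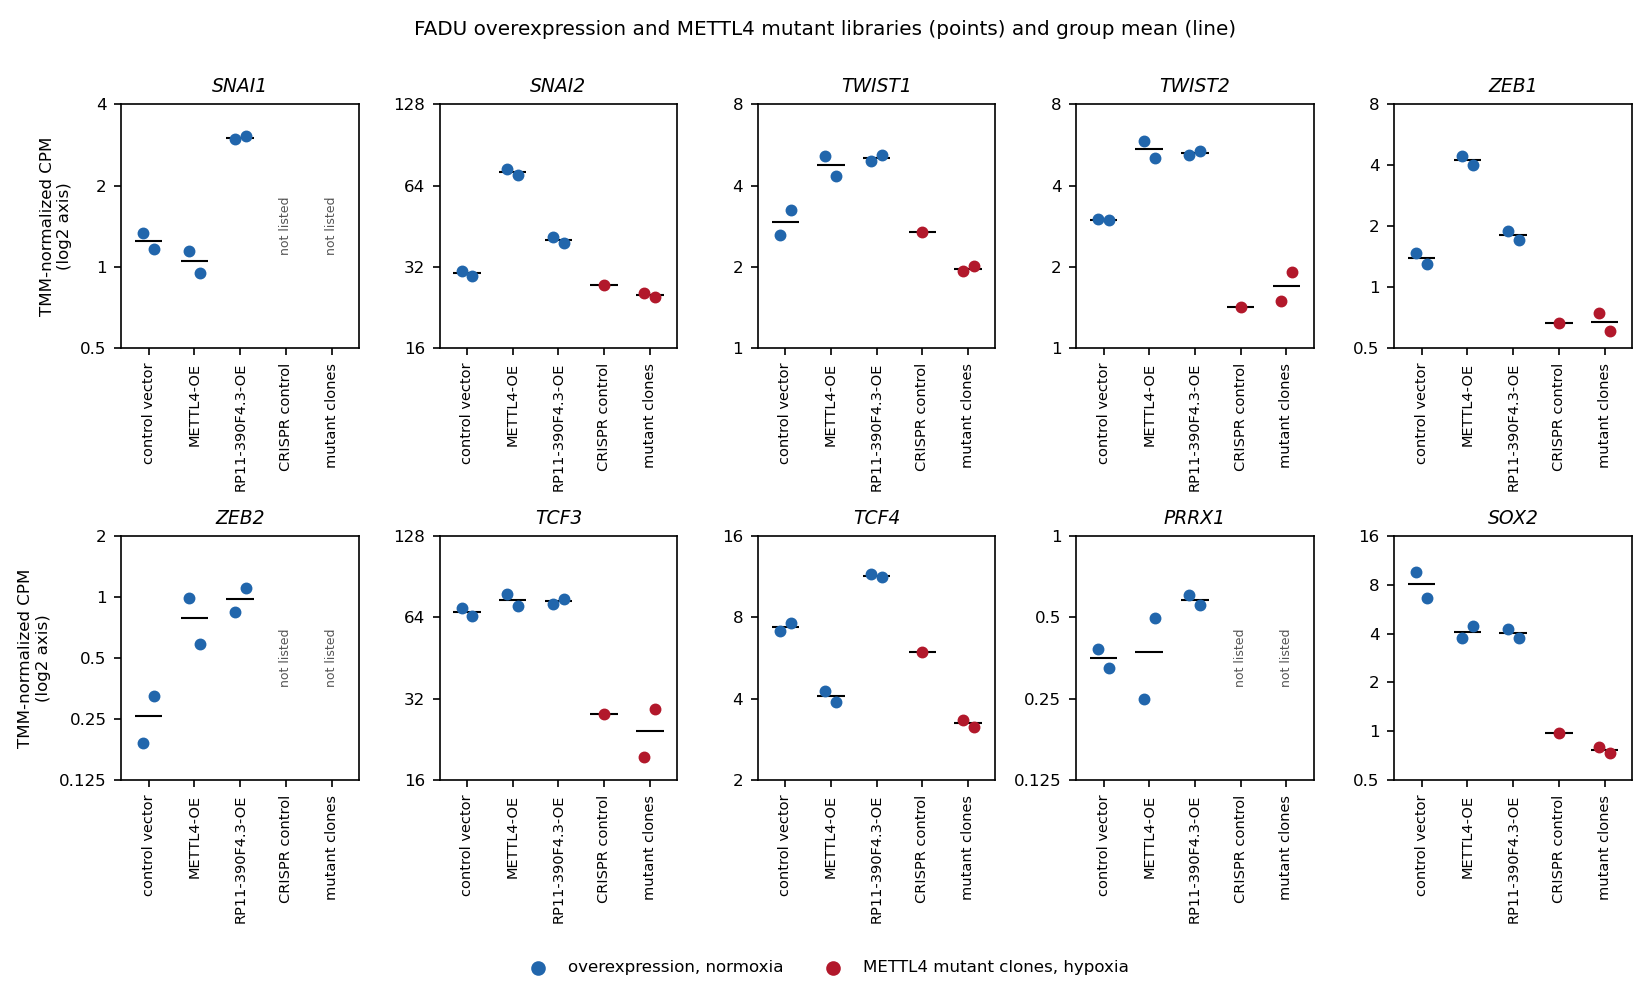
TMM-normalized CPM of each member in the 6 overexpression libraries and the 3 METTL4 mutant libraries of FADU cells on a log2 axis, with 1 point per library and a line at each group mean. SOX2 is lower in both overexpressing lines than with the control vector, TCF4 is lower with METTL4-OE and higher with RP11-390F4.3-OE, and the mutant libraries, normalized in a table of their own, list 7 of the 10 members.

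**Figure D4:**
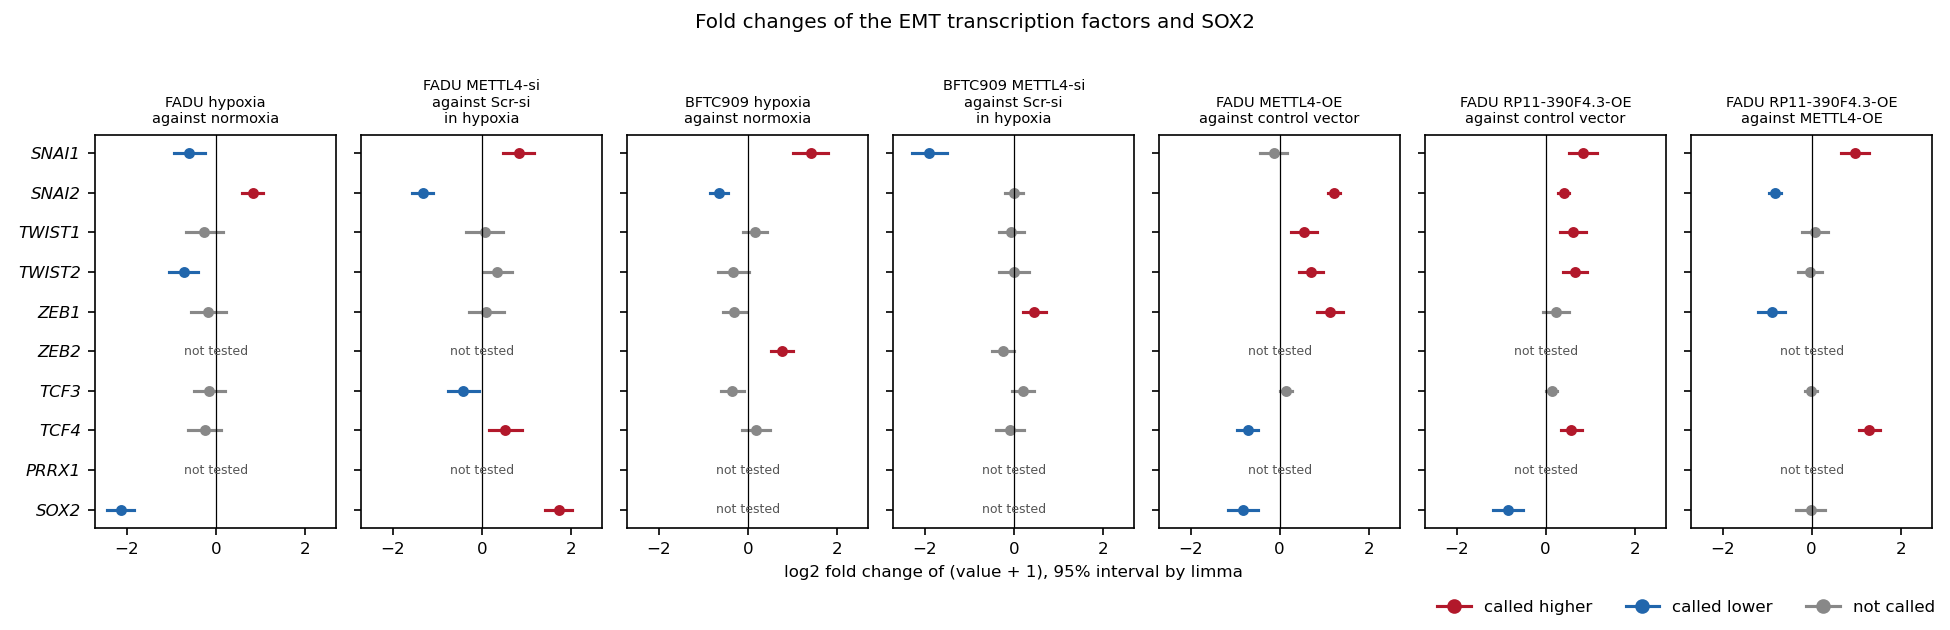
Log2 difference of each member in 7 comparisons, by limma on log2(CPM + 1), with 95% intervals. Red points were called higher, blue points called lower and grey points not called, and members under the filter or not listed are marked as not tested. SNAI2 is called in 6 of 7 comparisons and TWIST1 in 2.

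The mutant table has 1 CRISPR control library, so its values have no replicate check and no test, and its log2 ratios are of CPM + 1. Of the 7 members listed, TCF4 was past 1.3-fold on this scale in both METTL4 mutant clones, lower in each, and 1 of 7 stands against 20.7% of all listed genes (8.94% higher and 11.8% lower). TCF4 had 5.95 CPM in the control, 3.34 CPM in clone 1 and 3.16 CPM in clone 2, log2 ratios of -0.68 and -0.74. SOX2 had 0.971 CPM in the control and 0.805 and 0.733 CPM in the clones (log2 ratios -0.13 and -0.19).

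TWIST1 was lower in both clones, 1.94 and 2.01 CPM against 2.7 CPM, with log2 ratios of -0.33 and -0.30 on CPM + 1, short of 1.3-fold on that scale, although the CPM themselves were lower by more than 1.3-fold in both clones. SNAI2 varied little, at 27.5 CPM in the control and 25.7 and 24.7 CPM in the clones (log2 ratios -0.09 and -0.15). TCF3 separated the clones from each other, at 19.5 CPM in clone 1 and 29.3 CPM in clone 2 with 28.1 CPM in the control. TWIST2 had 1.43, 1.49 and 1.91 CPM and ZEB1 0.667, 0.745 and 0.606 CPM in control, clone 1 and clone 2, with no common direction for ZEB1. METTL4 itself had 12.5, 15.9 and 10.6 CPM in the same order. In this table rows that are no gene take 40.9% to 43.0% of each column, so its levels are not on the scale of the other tables.

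Other transcription factors tied to this transition, 14 in the list, were called in part. Counts here and in the lists below stand against the shares of all tested genes called higher and lower. These were 12.4% and 12.5% in FADU hypoxia and 15.2% and 16.8% with METTL4-si there. In BFTC909 they were 19.5% and 19.2% in hypoxia and 15.7% and 12.9% with METTL4-si. They were 8.30% and 11.1% in METTL4-OE, 16.8% and 12.8% in RP11-390F4.3-OE and 18.8% and 13.6% between these lines. In FADU hypoxia 1 of 10 tested was higher and 2 lower, led by ETS1 (log2 difference 1.25), and in the METTL4-si libraries 2 were higher (SOX4 0.86, GSC 0.75) and 3 lower, among them ETS1 (-1.79) and TEAD1 (-0.50). In BFTC909 hypoxia 6 of 8 were lower and 0 higher, among them ZNF703 (-1.21) and FOXC1 (-1.05), with a median of -0.56. METTL4-OE came with 6 of 10 higher and 0 lower, led by ETS1 (1.71) and HMGA2 (1.21), and RP11-390F4.3-OE with 4 of 10 higher, led by SOX9 (1.82) and ETS1 (1.05). Between the overexpressing lines 2 were higher and 3 lower in RP11-390F4.3-OE cells. With METTL4-si in BFTC909 3 of 8 were higher (among them SOX4 1.56) and 3 lower, and the median of 0.35 was -0.00 without METTL4-si replicate 2.

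E proteins pair with other helix-loop-helix factors and are held back by ID proteins, which dimerize with them without binding DNA. Of this list of 13, ID1 fell in FADU hypoxia (log2 difference -0.72), in BFTC909 hypoxia (-1.3) and in METTL4-OE cells (-0.94) and rose in RP11-390F4.3-OE cells (0.70). In BFTC909 hypoxia ID2 rose (1.70) and ID4 fell (-1.20), giving 1 higher and 3 lower of 6 tested. With METTL4-si there, 4 of 6 fell and 0 rose, including ID2 (-2.10) and ID3 (-1.92). In FADU hypoxia the count was 1 higher and 1 lower of 6, with METTL4-si 0 of 6 called, in METTL4-OE cells 0 higher and 1 lower of 5, and in RP11-390F4.3-OE cells 2 higher (MSC 1.08) and 0 lower of 5. Against METTL4-OE, RP11-390F4.3-OE cells had 2 of 5 higher (ID1 1.64, MSC 1.42) and 0 lower.

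Corepressors that SNAIL and ZEB factors recruit, 14 genes that were all tested, were not called higher in any of the 7 comparisons. In those, 8.30% to 19.5% of all tested genes were called higher. The number called lower was 1 in FADU hypoxia (SUV39H1 -0.65), 3 with METTL4-si in FADU (RCOR1 -0.48, CTBP2 -0.48, HDAC1 -0.42) and 4 in BFTC909 hypoxia (among them SUV39H1 -0.58 and SUZ12 -0.52). It was 1 with METTL4-si in BFTC909 (AJUBA -1.02), 0 in METTL4-OE, 1 in RP11-390F4.3-OE (EZH2 -0.53) and 1 between the overexpressing lines. Genes tied to the turnover of SNAIL, ZEB and TWIST proteins, kinases and ubiquitin ligases among them, numbered 16 in the list. In FADU hypoxia 0 were called, and with METTL4-si 3 were lower (among them COPS2 -0.55 and GSK3B -0.48). In BFTC909 hypoxia 2 were higher and 4 lower (USP51 0.77, FBXO45 -0.85). With METTL4-si in BFTC909 1 was higher (TRIM21 0.41) and 1 lower, in METTL4-OE 1 higher (CSNK1E 0.51), in RP11-390F4.3-OE 3 higher (among them PAK1 0.85 and CSNK1E 0.78), and between the overexpressing lines 1 higher (PAK1 0.85).

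Epithelial genes that these factors repress, with factors that oppose them, 22 in the list, were mostly lower where they were called in METTL4-OE cells. There 10 of 21 tested were lower and 1 higher, with a median log2 difference of -0.37 against medians within 0.03 of 0 for all genes. CDH1, the E-cadherin gene, fell from 237 and 243 CPM to 143 and 137 CPM (log2 difference -0.77), and CLDN4, a tight junction gene, had a log2 difference of -1.36. In RP11-390F4.3-OE cells 5 of 21 were higher, led by OVOL1 (1.07) and KLF4 (1.02), and 4 lower, and against METTL4-OE 12 of 21 were higher and 0 lower. In FADU hypoxia 3 of 22 were higher, including CDH1 (0.71), and 4 lower, including CLDN4 (-1.04).

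With METTL4-si in FADU, 6 of 22 epithelial genes were higher, led by CLDN4 (1.63) and EPCAM (0.95), and 2 lower, with a median of 0.20 that was 0.06 without the 2 libraries that carried breast markers. BFTC909 expressed 7 of them to a testable level, of which 2 were higher in hypoxia (PATJ 0.78, KLF5 0.38) and, with METTL4-si, 3 higher and 1 lower. The median of those 7 with METTL4-si was 0.80, and 0.14 without METTL4-si replicate 2, in which EPCAM had 26.5 CPM against 1.69 CPM in replicate 1.

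Mesenchymal genes, 18 in the list with 12 to 15 tested, had more members called higher than lower in hypoxia and in each overexpressing line against its control, and more called lower than higher in the METTL4-si libraries. In FADU hypoxia 7 of 12 tested were higher and 2 lower (CDH11 -0.81, S100A4 -0.48), and with METTL4-si 7 were lower and 1 higher (FN1 0.44). COL5A1, a fibrillar collagen gene, had 9.97 and 6.43 CPM in normoxia, 42.9 and 48.4 CPM in hypoxia and 23.8 and 9.75 CPM with METTL4-si. The hypoxic controls stood above all other libraries, with log2 differences of 2.37 in hypoxia and -1.51 with METTL4-si, and the METTL4-si replicates lay far apart. In BFTC909 hypoxia 10 of 15 were higher and 2 lower, led by COL5A1 (2.92) and MMP2 (2.56), and with METTL4-si 0 were higher and 9 lower, among them COL5A1 (-1.36).

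METTL4-OE had 11 of 13 mesenchymal genes higher and 1 lower (among them NT5E 2.33), and RP11-390F4.3-OE 7 of 13 higher and 1 lower (NT5E 2.20, CDH2 -0.85). Between these lines 3 were higher and 4 lower in RP11-390F4.3-OE cells. Fibroblast markers, 8 of 10 listed in BFTC909, moved with this list there, which shares PDGFRB with them. Their summed level was 1770 and 1898 CPM in normoxia, 5959 and 6185 CPM in hypoxia and 4138 and 4247 CPM with METTL4-si. Among the overexpression libraries 1 of the 10 was listed, at 2.54 to 5.91 CPM. The part of other cells in the BFTC909 change was not tested, and fewer cells of a type cannot be told apart from less RNA per cell in such bulk libraries.

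SOX2 works with a small set of partners in stem and squamous cells, 14 in the list, of which 7 were tested in FADU. While SOX2 fell in FADU hypoxia, 3 of the 7 rose, including TP63 (0.66), the squamous lineage factor, and 0 fell. With METTL4-si 2 rose (SALL4 0.71, KLF4 0.59) and 2 fell (TP63 -0.79, SOX15 -0.76). METTL4-OE had 0 higher and 2 lower (SALL4 -1.02, KLF4 -0.45), RP11-390F4.3-OE 3 higher (among them KLF4 1.02 and TP63 0.84) and 0 lower, and between the lines 4 were higher and 0 lower. BFTC909 had 1 of 4 higher in hypoxia (SALL4 0.91) and 1 lower (MYC -0.90), and 3 of 4 higher with METTL4-si (among them PAX6 0.89).

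Counts of list members past 1.3-fold, without a test, were also taken without the libraries that carried breast markers. In FADU hypoxia they went from 3 higher and 6 lower to 3 and 4 for the epithelial genes, from 7 and 2 to 8 and 2 for the mesenchymal genes, from 1 and 3 to 1 and 2 for the other transcription factors, from 1 and 2 to 1 and 1 for the E protein list and from 3 and 0 to 2 and 0 for the SOX2 partner genes. With METTL4-si in FADU they went from 3 higher and 3 lower to 2 and 4 for the other transcription factors, from 2 and 1 to 0 and 1 for the E protein list, from 1 and 3 to 0 and 3 for the corepressors and from 0 and 3 to 0 and 4 for the turnover genes. They went from 8 and 3 to 6 and 3 for the epithelial, from 1 and 7 to 0 and 8 for the mesenchymal and from 2 and 2 to 3 and 2 for the SOX2 partner genes. With METTL4-si in BFTC909 the other transcription factors went from 4 and 3 to 3 and 0, the epithelial genes from 6 and 1 to 3 and 1, the mesenchymal genes from 0 and 9 to 1 and 8 and the turnover genes from 1 and 1 to 2 and 2. In RP11-390F4.3-OE cells the mesenchymal genes went from 7 and 1 to 8 and 1 against the control vector and the epithelial genes from 12 and 0 to 11 and 1 against METTL4-OE.

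**Figure D5:**
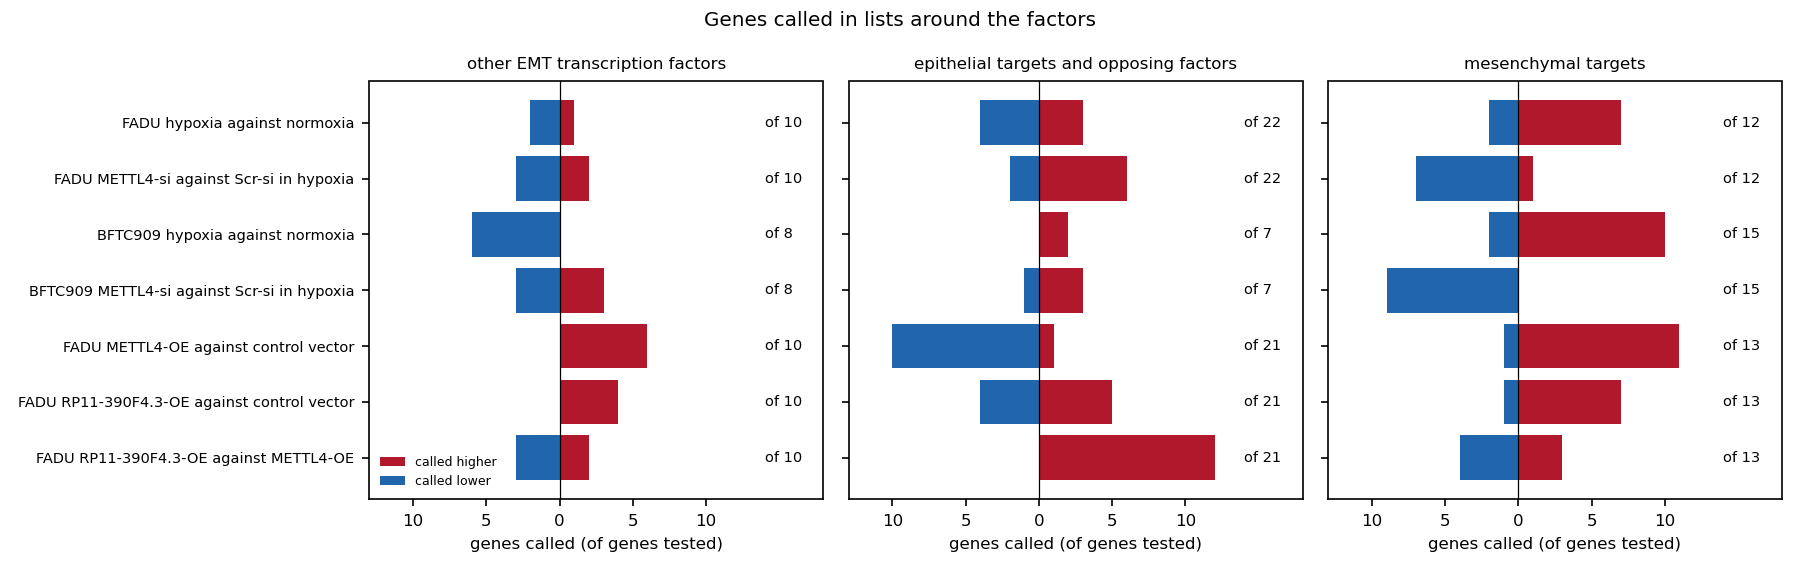
Number of genes called higher (red) and lower (blue) in 3 lists of genes related to the members, for 7 comparisons, with the number tested at the right. Of the mesenchymal genes called, more were higher than lower in hypoxia and in each overexpressing line against control, and more were lower than higher with METTL4-si. In METTL4-OE cells 10 of 21 epithelial genes were lower, against 11.1% of all tested genes.

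RP11-390F4.3 (ENSG00000225489, chr9:6716157-6727438, plus strand), the RNA overexpressed in the second line, was lower in the libraries labelled METTL4-si than in the hypoxic controls of both lines. In FADU it had 12 and 12.3 CPM in normoxia, 31.7 and 31.3 CPM in hypoxia and 19.0 and 22.2 CPM with METTL4-si (log2 difference from the hypoxic control -0.59, adjusted p 0.0055). In BFTC909 it was scarce, at 0.358 and 0.336 CPM in normoxia, 1.59 and 2.25 CPM in hypoxia and 0.469 and 1.41 CPM with METTL4-si (log2 difference -0.62, adjusted p 0.0903). In METTL4-OE cells it had 21.8 and 21.7 CPM, close to the 23.9 and 25.1 CPM of its own overexpressing cells, whose columns were assigned by elimination. SNAI1, SNAI2, ZEB1 and TCF4 differed between these 2 lines, and any link to the level of this RNA was not tested.

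Genes whose pattern was most like a member's were sought over the 12 knockdown libraries, among 9822 genes with a mean of at least 5 CPM in both lines. Each line's log2 values were first centred on that line's mean, and the correlations are a description over libraries that share depth and table. SNAI2 was closest to FABP5 (r = 0.989), STK24 (0.972) and MTMR10 (0.97), TCF3 to OTUB1 (0.982), MAP3K11 (0.969) and TRAF7 (0.955), and TCF4 to PHTF2 (0.938), SLC30A7 (0.931) and SP4 (0.928). The other members were below 5 CPM on average in at least 1 line or not listed there.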

How the data were processed

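Each library was prepared with a stranded, ribosome-depleting kit (Kapa HyperPrep with RiboErase) and sequenced in pairs. The authors trimmed reads with Trim Galore, aligned them with HISAT2 to hg19, counted genes with htseq-count and deposited a normalized signal per gene and library, TMM-normalized CPM from edgeR; versions, annotation and strand setting are not given in the sources used here. Their comparison tables, which hold fold changes, mean expression, F statistics and p-values, were not used.

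In the 3 tables of 6 libraries 100.0% of values lay within 0.1 read of a whole read, and those reads served edgeR 4.0.16 and DESeq2 1.42.0 as alternatives; by the same rule edgeR called 4336 and 5651 genes in the FADU knockdown comparisons (hypoxia, then METTL4-si), 6022 and 4508 in BFTC909, 3404 and 5109 in METTL4-OE and RP11-390F4.3-OE against control, and 5503 between these lines. The main test was limma 3.58.1 (R 4.3.3, eBayes with trend) on log2(CPM + 1), over genes with at least 1 CPM in at least 2 libraries, the 3 groups of a table sharing 1 spread; this understates changes of low genes. With 2 libraries against 2, an exact permutation cannot go below 0.333, so none was made. Adjusted p-values are Benjamini-Hochberg over all genes tested. The scripts were tested on simulated data. Alternatives were other pseudocounts, filters, thresholds, centring, tools, a replicate block and each library left out.

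Members and lists were chosen with earlier results of these data known. Every member is named; from each list, the genes called with the largest differences in each direction are named, except some that are not reported here, and CDH1, COL5A1 and other genes shown per library were picked after their values were seen. Gene positions are from GRCh37 with GENCODE v44; RP11-390F4.3 was identified by where the study's primers lie.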

Additional observations from a re-analysis of the deposited data

Results flagged for a closer look

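3 members differed in opposite directions in the 2 cell lines, with every library of a group on the same side of its control. In hypoxia SNAI1 had a log2 difference of -0.59 in FADU and 1.42 in BFTC909, and SNAI2 had 0.83 in FADU and -0.65 in BFTC909. TCF4 had -0.25 in FADU and 0.19 in BFTC909, neither of which was called. With METTL4-si in hypoxia SNAI1 had 0.83 in FADU, where METTL4 RNA was not lower than in the control, and -1.89 in BFTC909. Such opposite and non-overlapping groups were found for 3 of 7 members tested in both lines in hypoxia, against 18.7% of 13595 genes, and for 1 of 7 with METTL4-si, against 13.8%. The difference between the lines itself was not tested, since their tables were normalized separately. SNAI1 rested on 9 to 39 reads per library in FADU and on 73 to 369 in BFTC909.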

How the results depend on the processing

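Across the alternatives, 115 counts of members called stayed within 1.5 times the value reported and 19 did not. At a 2-fold threshold the counts were 1 and 2 in FADU hypoxia and METTL4-si, 1 and 1 in BFTC909, 2 in METTL4-OE, 0 in RP11-390F4.3-OE, 1 between the overexpressing lines and 0 in the mutant clones. With a filter on a mean of at least 5 CPM, 2 were called in FADU hypoxia, 3 in METTL4-OE, 3 in RP11-390F4.3-OE and 2 between the overexpressing lines, since that filter tests fewer members. A pseudocount of 5 gave 3 in FADU METTL4-si and 2 in RP11-390F4.3-OE, where it ended the calls of SNAI1, SNAI2, TWIST1 and TWIST2; it also ended those of SNAI1 in both FADU knockdown comparisons, TCF4 in FADU METTL4-si and TWIST1 in METTL4-OE. Median centring gave 1 in BFTC909 METTL4-si, and a pseudocount of 0.1 gave 2 members past the fold in both mutant clones.

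With each library left out in turn, the count was 4 throughout in FADU hypoxia, 3 to 5 in FADU METTL4-si (3 without Scr-si hypoxia replicate 2), 3 to 4 in BFTC909 hypoxia, 1 to 2 in BFTC909 METTL4-si (1 without Scr-si hypoxia replicate 2), 6 throughout in METTL4-OE, 5 to 6 in RP11-390F4.3-OE, 4 throughout between the overexpressing lines and 1 to 2 in the mutant (2 without clone 2).

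Log2 differences that changed sign were all uncalled and near 0, and the cause was not tested. In FADU METTL4-si, single libraries left out gave -0.041 to 0.18 for TWIST1 and -0.045 to 0.26 for ZEB1, negative without Scr-si hypoxia replicate 2. In BFTC909 METTL4-si SNAI2 was -0.094 after median centring, -0.0054 by edgeR, -0.012 by DESeq2 and -0.080 to 0.086 without single libraries. TWIST2 there was -0.094, -0.0023 and -0.011 in the same order and -0.11 to 0.12 without single libraries, TWIST1 was -0.12 to 0.017 and TCF4 -0.28 to 0.13. Between the overexpressing lines, single libraries left out gave -0.084 to 0.057 for TCF3, -0.029 to 0.18 for TWIST1, -0.12 to 0.069 for SOX2 and -0.13 to 0.046 for TWIST2, and median centring gave -0.0098 for TWIST1.

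Equal replicate numbers did not pair the samples: differences between replicates correlated at 0.648 between FADU normoxia and METTL4-si, whose replicates 1 both carry breast markers, and at -0.065 to 0.154 elsewhere. With the replicate number as a block, 4, 5, 3, 2, 6, 6 and 4 members were called, as without it. Depth limits SNAI1, ZEB1 and ZEB2 in the FADU knockdown libraries, with 39 reads or fewer, and PRRX1, with 15 or fewer.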
